A study of Mus musculus with 11 samples.

Results

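Macrophages with the profile Ly6Clow/CX3CR1high, sorted from the heart 7 days after injury, were compared with macrophages of the profile Ly6Chigh/CX3CR1low sorted at day 3. The comparison rests on 6 of the 11 arrays of the series, chosen by their titles, 3 for each population. All animals were Cx3cr1GFP/+ mice, 2 to 3 months old, in which GFP replaces 1 copy of the fractalkine receptor gene and marks the sorted cells. Cryoinjury, in which part of the ventricle is killed by freezing, stood in for myocardial infarction in both groups. The other 5 arrays, used here to estimate the spread and as a backdrop, hold Ly6Clow/CX3CR1high cells, 2 from unoperated hearts (day 0) and 3 from hearts at day 30 after injury. Ly6Chigh cells were measured at day 3 alone and Ly6Clow cells at the other times, so that time after injury and population cannot be told apart. The labels describe independent biological replicates and do not say how many animals each holds.

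MicroRNAs (miRNAs) are RNAs of about 22 bases that guide Argonaute proteins to messenger RNAs and lower their translation or stability. Target choice rests mainly on the seed, bases 2 to 8, so that miRNAs with a shared seed are grouped as a family. After cardiac injury, Ly6Chigh monocyte-derived cells dominate an early inflammatory phase and Ly6Clow macrophages a later reparative phase. Several miRNAs are known brakes or accelerators of inflammatory signalling in macrophages, among them miR-146a, miR-155, miR-21, miR-223 and the miR-99b/let-7e/miR-125a cluster.

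Between day 3 and day 7 the miRNAs that rose furthest included miR-146a-5p and members of the miR-99/let-7/miR-125 clusters. Among miRNAs detected on all 6 arrays, those that fell furthest included the leukocyte miRNA miR-142a-3p, the myeloid miRNA miR-223-3p and families with the seeds AAAGUGC (miR-17), AGCAGCA (miR-15/16) and, in part, GAGGUAG (let-7). The mature sequences of the members that carry this contrast follow, 5′ to 3′, from RefSeq (GRCm38.p6), with the seed in capitals. The rising ones come first.
miR-146a-5p: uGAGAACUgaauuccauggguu
miR-125a-5p: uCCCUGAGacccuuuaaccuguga
miR-125b-5p: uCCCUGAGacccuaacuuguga
miR-99b-5p: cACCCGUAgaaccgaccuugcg
miR-99a-5p: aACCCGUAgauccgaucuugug
miR-100-5p: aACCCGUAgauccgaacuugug
let-7e-5p: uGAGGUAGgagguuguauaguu

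The falling ones are shown by family, so that let-7e-5p can be read against its relatives, which went the other way with the same seed.
miR-98-5p: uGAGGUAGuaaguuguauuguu
let-7g-5p: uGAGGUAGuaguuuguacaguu
miR-106b-5p: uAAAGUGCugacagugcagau
miR-20a-5p: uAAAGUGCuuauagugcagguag
miR-20b-5p: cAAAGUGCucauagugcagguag
miR-93-5p: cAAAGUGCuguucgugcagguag
miR-15a-5p: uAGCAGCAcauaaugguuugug
miR-15b-5p: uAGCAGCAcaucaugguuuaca
miR-16-5p: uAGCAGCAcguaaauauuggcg
miR-142a-3p: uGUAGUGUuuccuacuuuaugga
miR-223-3p: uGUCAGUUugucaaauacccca
miR-21a-5p: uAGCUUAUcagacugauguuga

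The day 7 arrays were dimmer than the day 3 arrays, and every change below has to be read with that in view. The 75th percentile of signal over the 126 miRNAs detected on all 11 arrays was 962, 805 and 1610 scanner units in day 3 replicates 1, 2 and 3. It was 323, 114 and 260 units in the day 7 replicates, below all day 3 arrays. The arrays detected 313, 301 and 338 of 1247 miRNAs at day 3 and 270, 208 and 246 at day 7. With 3 arrays a group, the number of arrays sets the precision. In bulk samples of sorted cells, fewer cells of a type and less RNA per cell cannot be told apart. Each array was divided by its 75th percentile and log2 was taken, so that a value of 0 is that percentile and a change of 1 is a doubling relative to it. On this scale the median change from day 3 to day 7 was 0.61 over the 369 miRNAs tested and 0.79 over the 201 detected on all 6 arrays.

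In a limma fit over all 4 groups, 137 of 369 miRNAs (37.1%) passed an adjusted p of 0.05, of which 78 were higher (21.1%) and 59 lower (16%) at day 7. Among the 201 detected on all 6 arrays, 61 were higher (30.3%) and 25 lower (12.4%). The 61 rises were all larger than the median change of 0.79, the smallest being 1.22, and the smallest of the 25 falls was -1.02. The groups did not overlap for 85 of these 86 miRNAs, the exception being miR-511-3p. Among all 201, called or not, they did not overlap for 145. The array slides held replicates 1 and 3 (slide 1) and replicate 2 (slide 2) of day 3 and of day 7. All 137 calls had the same sign within both slides, as had 320 of the 369 tested miRNAs. For the 136 calls without overlap between the groups this was fixed in advance, so it is no separate support.

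**Figure D1:**
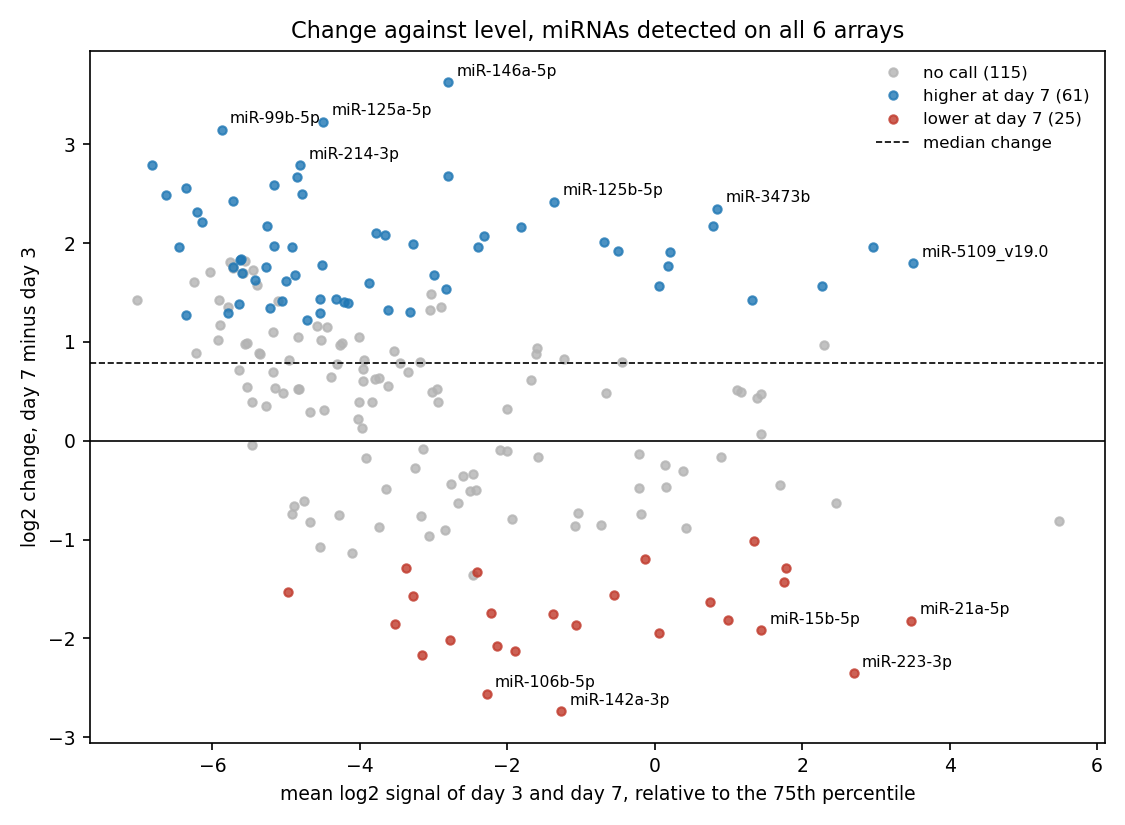
Log2 change from day 3 to day 7 (vertical axis) against the mean log2 signal of the same 6 arrays, relative to each array's 75th percentile (horizontal axis), for the 201 miRNAs detected on all 6. The 61 higher calls (blue) lie above the dashed median change of 0.79 and mostly towards the dim side, and the 25 lower calls (red) spread into the bright side, with miR-223-3p and miR-21a-5p at the far right.

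The direction of a change depended on how the arrays were scaled. Over the 201 miRNAs the highest median change under 7 other scalings was 0.81, against 0.79 in the scaling used. Since none of them raised the median by much, they could turn rises but hardly falls, and the kept signs of the falls were largely given in advance. All 25 falls kept their sign under each of 7 other scalings, and 19 were called under all 7. Of the 61 rises, 14 kept their sign under all 7 and none was called under all 7. Those 14 were miR-146a-5p, miR-125a-5p, miR-99b-5p, miR-125b-5p, miR-214-3p, miR-3473b, miR-450a-2-3p, miR-466f-3p, miR-466h-3p, miR-466i-3p, miR-466q, miR-467f, miR-669p-3p and miR-721. With quantile normalization the split was 67 higher and 76 lower, and with cyclic loess 70 and 94. With the percentile taken over all miRNAs of the design it was 13 and 104, with control features named dmr 6 and 175, and with no scaling 2 and 206. The median change over the 201 miRNAs was -0.42 with the percentile over all miRNAs, -1.01 with the dmr controls and -1.55 with no scaling. In unscaled signal, miR-125a-5p alone of the 61 rises was higher on every day 7 array than on every day 3 array. All 25 falls were lower on every day 7 array, as were 147 of the 201 miRNAs in all.

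**Figure D2:**
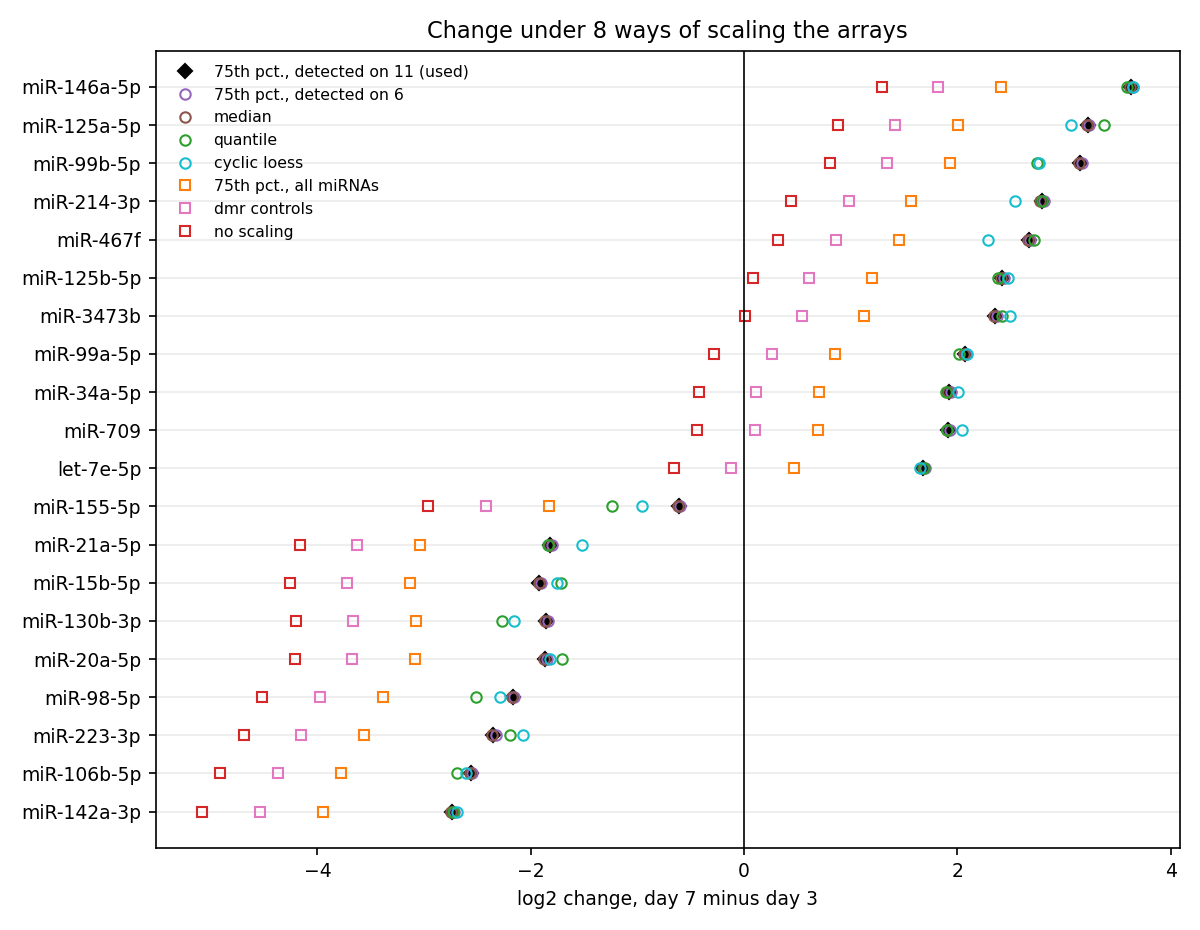
Log2 change from day 3 to day 7 for 20 miRNAs (rows) under 8 scalings (symbols), the filled diamond being the scaling used. The scalings on miRNAs detected on all 11 or all 6 arrays, quantile normalization and loess cluster together, whereas the percentile over all miRNAs, the dmr controls and no scaling lie to the left. miR-146a-5p stays right of 0 throughout, let-7e-5p crosses 0 with the dmr controls (-0.12) and with no scaling (-0.66), and miR-142a-3p stays left of 0 throughout.

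Within-array ranks, which do not move when an array is scaled by a single factor, were therefore read beside the changes. Each miRNA was ranked among the 201 on its own array, with 1 the brightest. Ranks of the 2 groups did not overlap for 112 miRNAs, of which 52 (25.9%) stood nearer the top at day 7 and 60 (29.9%) nearer the bottom. Of the 61 rises, 44 were among the 52, and the 25 falls were all among the 60. One miRNA called higher, miR-5130, stood nearer the bottom at day 7. The 5 largest moves towards the top were those of miR-125a-5p, miR-146a-5p, miR-467f, miR-214-3p and miR-466h-3p, with miR-125a-5p going from a mean rank of 167.7 to 82.3. The 5 largest moves towards the bottom were those of miR-128-3p, miR-98-5p, miR-130b-3p, miR-324-5p and miR-3096b-5p_v19.0. Of these, miR-324-5p and miR-3096b-5p_v19.0 were not called in the fit.

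**Figure D3:**
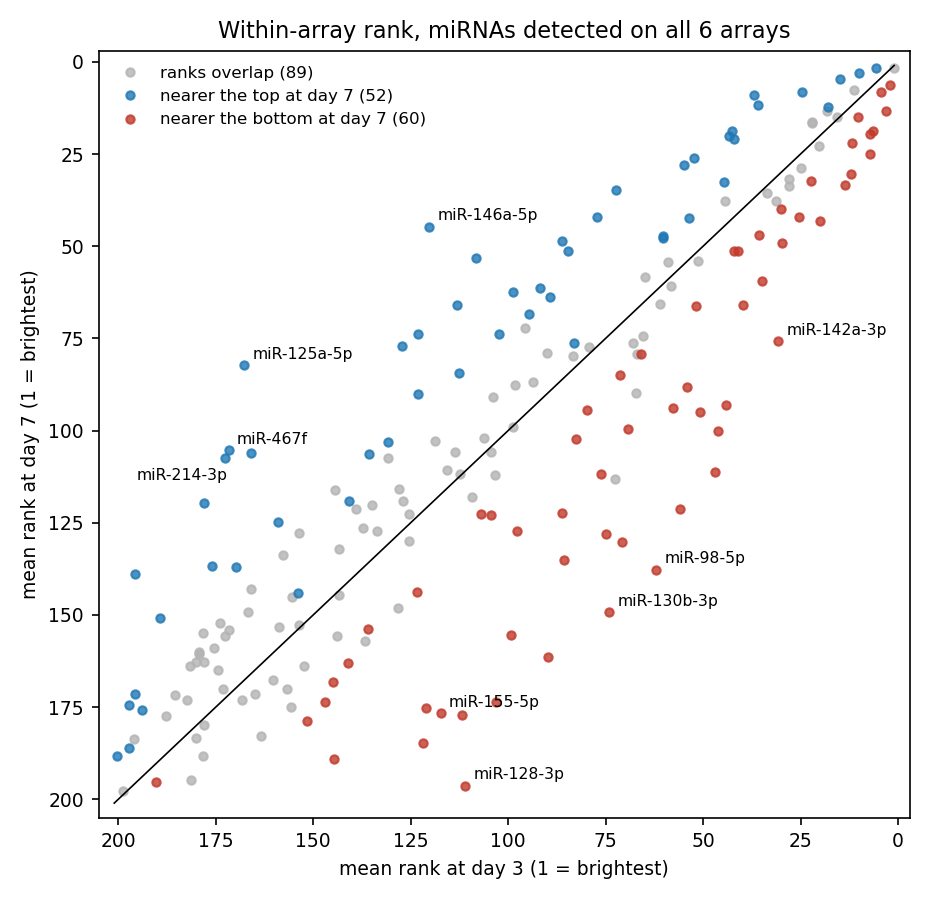
Mean within-array rank at day 3 (horizontal axis) and at day 7 (vertical axis) for the 201 miRNAs detected on all 6 arrays, with the brightest at the top right. Blue points (52) have ranks nearer the top on every day 7 array than on every day 3 array, red points (60) the reverse, and grey points (89) overlap; miR-128-3p falls furthest, from 111 to 196.3.

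miR-146a-5p, which NF-kappaB induces and which in turn dampens signalling from Toll-like receptors, showed the largest rise among miRNAs detected on all 6 arrays. Its log2 signal was -3.30, -5.80 and -4.76 in the day 3 replicates and -0.69, -1.77 and -0.51 at day 7. Every day 7 array lay above every day 3 array, and day 3 replicate 1 was the highest of a widely spread group. The change was 3.63 (SE 0.59, adjusted p = 0.00124 in limma), 3.43 within slide 1 and 4.03 within slide 2. In unscaled signal the groups overlapped, at 97.5, 14.4 and 59.3 units against 200, 33.3 and 183. There day 7 replicate 2 lay below day 3 replicates 1 and 3. The mean rank went from 120.3 to 44.7.

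The miR-99b/let-7e/miR-125a cluster rose at all 3 of its guide strands. The cluster lies on the plus strand of chromosome 17 within the span of Spaca6, with miR-99b-5p at chr17:17830194-17830215, let-7e-5p at chr17:17830366-17830387 and miR-125a-5p at chr17:17830817-17830840 (GRCm38.p6). It is transcribed as 1 precursor and is known for dampening inflammatory activation of macrophages.

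miR-125a-5p, which restrains inflammatory activation, measured -5.61, -6.34 and -6.38 at day 3 and -3.35, -2.32 and -2.98 at day 7. The change was 3.23 (SE 0.42, adjusted p = 0.000517 in limma) without overlap. miR-99b-5p, a repressor of mTor, measured -7.04, -7.54 and -7.75 at day 3 and -4.25, -4.68 and -3.96 at day 7. These groups lay apart by more than their spread, and the change was 3.15 (SE 0.39, adjusted p = 0.000517). let-7e-5p rose by 1.68 (SE 0.38, adjusted p = 0.00535), from -3.62, -3.72 and -4.16 to -2.45, -1.73 and -2.26, although its sign turned with the dmr controls and with no scaling. Its mean rank moved from 98.7 to 62.3 without overlap. The passenger strand miR-125a-3p changed by 0.54 (adjusted p = 0.38).

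The miR-99a, miR-100 and miR-125b members of the paralogous clusters moved the same way. miR-125b-5p, which shares the seed CCCUGAG and 15 bases in place with miR-125a-5p, measured -2.10, -3.03 and -2.58 at day 3 and -0.21, -0.28 and 0.04 at day 7. The change was 2.42 (SE 0.39, adjusted p = 0.00124), and the day 7 arrays lay close together above all day 3 arrays. miR-99a-5p, which is identical to miR-99b-5p at 18 of 22 bases, rose by 2.07 (adjusted p = 0.00177), from -3.43, -3.21 and -3.43 to -1.21, -1.49 and -1.17. miR-100-5p, the third miRNA with the seed ACCCGUA, rose by 1.70 (adjusted p = 0.00976). With no scaling the change of miR-99a-5p was -0.28 and that of miR-100-5p -0.64, and miR-100-5p also turned with the dmr controls. Over the miR-99/let-7/miR-125 clusters, 6 of 9 tested members rose, against 21.1% of all tested miRNAs, and none fell. Against a median change of 0.61 over all tested miRNAs, that of the clusters was 1.70. That median was 0 with the dmr controls and -0.28 with no scaling. let-7c-5p (0.43, adjusted p = 0.344), let-7c-1-3p and miR-125a-3p were the members without a call.

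**Figure D4:**
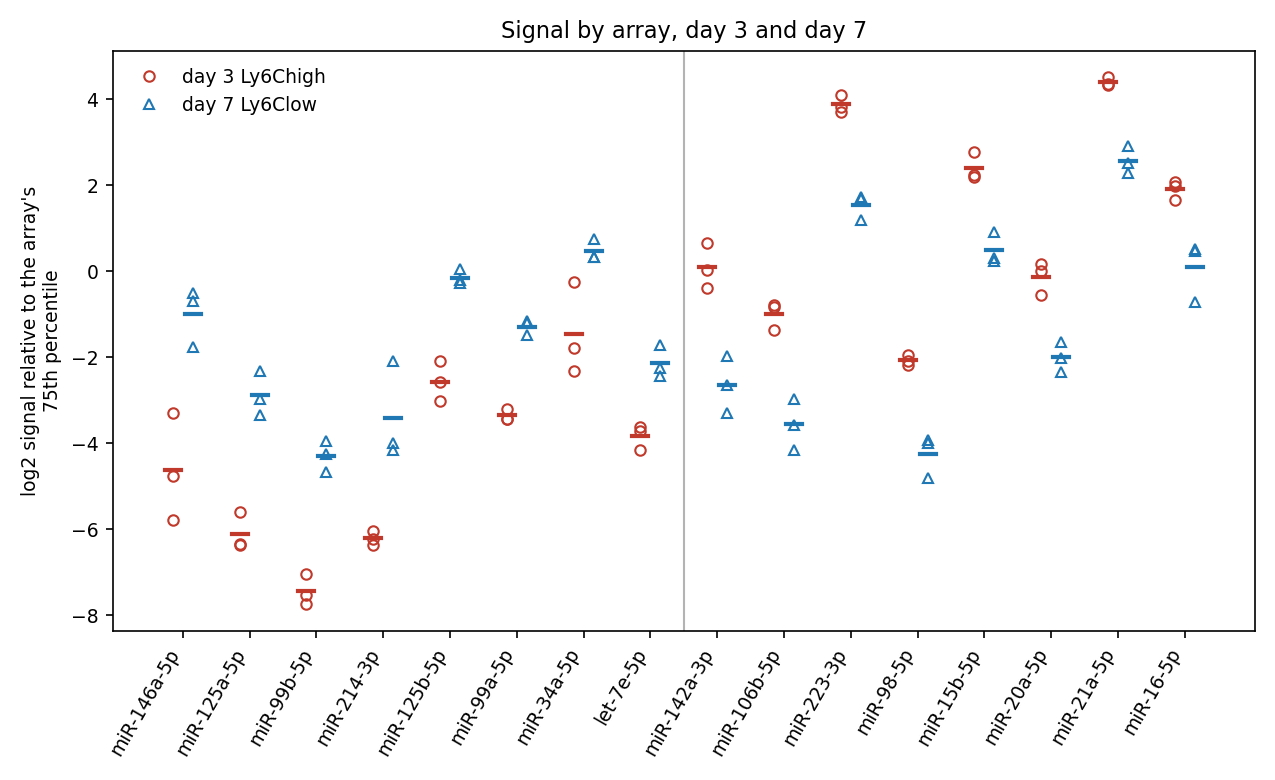
Log2 signal relative to the array's 75th percentile (vertical axis) for 8 rising (left) and 8 falling (right) miRNAs, with 1 symbol per array and a bar at the mean of each group. Day 7 triangles lie above all day 3 circles for the rising ones and below them for the falling ones, and miR-146a-5p and miR-34a-5p show the widest spread among day 3 arrays.

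Other miRNAs tied to macrophage activation divided. In the alternative activation list, 5 of 12 tested members rose and 1 fell, against 21.1% and 16% of all tested miRNAs. The median change was 0.68, close to the 0.61 of all tested miRNAs. Over the 9 members detected on all 6 arrays it was 1.68, against 0.79 over all 201 such miRNAs. The risers were miR-146a-5p, miR-125a-5p, miR-99b-5p, let-7e-5p and miR-511-3p, and the one that fell was miR-223-3p. miR-511-3p, which lies within the span of the mannose receptor gene Mrc1, measured -4.85, -5.73 and -5.62 at day 3 and -2.93, -4.87 and -3.05 at day 7. Its change was 1.78 (adjusted p = 0.0177), with day 7 replicate 2 just below day 3 replicate 1. In the Toll-like receptor and NF-kappaB list, 1 of 5 tested members rose (miR-146a-5p) and 1 fell (miR-132-3p, by 1.27 on the log2 scale, adjusted p = 0.0375, detected on 2 of 3 day 7 arrays). Its members had a median of -0.61 over the 5 tested and 0.82 over the 3 detected on all 6 arrays.

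miR-155-5p, a driver of inflammatory activation, measured -3.89, -4.98 and -4.48 at day 3 and -5.21, -5.12 and -4.87 at day 7. The change was -0.61 (SE 0.45, adjusted p = 0.272), and the groups overlapped. It was called lower with quantile normalization (-1.24, adjusted p = 0.0153), loess (-0.96, adjusted p = 0.0322), the percentile over all miRNAs (-1.83), the dmr controls (-2.42), no scaling (-2.96) and ranks as normal scores (-0.98), and in the log2 values deposited by the authors (-1.25, adjusted p = 0.0174). Its mean rank went from 117.3 to 176.7 without overlap. The difference between miR-146a-5p and miR-155-5p on the same array, in which scaling cancels, was -0.17 ± 0.71 (SD, n = 3) at day 3 and 4.08 ± 0.63 at day 7. This pair, like the other same-array differences below, was chosen after its values were seen and is given without a test.

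miR-142a-3p, made in blood cells of all lineages, fell furthest among miRNAs detected on all 6 arrays. It measured 0.02, -0.39 and 0.66 at day 3 and -1.98, -3.29 and -2.65 at day 7. The change was -2.74 (SE 0.49, adjusted p = 0.00201), -2.65 within slide 1 and -2.90 within slide 2. Its mean rank went from 30.7 to 75.7. The other arm, miR-142a-5p, was detected on 1 of 3 day 7 arrays and changed by -2.91 (adjusted p = 0.00405).

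miR-223-3p, a myeloid miRNA that restrains granulocyte production and the inflammasome, measured 3.71, 4.09 and 3.82 at day 3 and 1.72, 1.19 and 1.68 at day 7. The groups lay far apart relative to their spread, with a change of -2.35 (SE 0.38, adjusted p = 0.00124). Its mean rank moved from 3 to 13.3.

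miR-21a-5p, which lies within the span of Vmp1 (chr11:86584120-86584141, minus strand) and is induced in injured hearts, measured 4.51, 4.33 and 4.34 at day 3 and 2.91, 2.28 and 2.52 at day 7. The change was -1.82 (SE 0.36, adjusted p = 0.0033), and its mean rank moved from 2 to 6.3. In the myeloid and pan-leukocyte list, 5 of 8 tested members fell and 1 rose (miR-146a-5p), against 16% and 21.1% of all tested miRNAs. The list had a median of -1.83. Its summed signal ranged from 5.18 to 5.25 at day 3 and from 2.93 to 3.56 at day 7 on the log2 scale, and 5 of the 8 were detected on all 6 arrays. miR-155-5p and miR-146b-5p were not called. Ly6C and CX3CR1 themselves are proteins that these arrays do not measure.

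Members of the miR-17~92 cluster and its relatives, miR-106b~25 and the cluster of miR-106a, which promote cell cycle progress by repressing inhibitors of proliferation, mostly fell. Of 12 tested members, 8 fell, against 16% of all tested miRNAs, and none rose. The median was -1.81 and was also negative under the other scalings. The 4 without a call were miR-92a-3p (-0.47), miR-18a-3p (-0.51), miR-17-3p (-0.82) and miR-17-5p. With brightness as a covariate miR-106b-5p, miR-93-5p, miR-20a-5p and miR-19b-3p lost the call and miR-20b-5p turned to 0.66. The 3 members of miR-106b~25, which lies on chromosome 5 within the span of the replication gene Mcm7, fell together: miR-106b-5p by 2.56 on the log2 scale (adjusted p = 0.00393), miR-93-5p by 1.75 (adjusted p = 0.00392) and miR-25-3p by 1.56 (adjusted p = 0.00629).

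miR-106b-5p measured -1.37, -0.84 and -0.79 at day 3 and -2.97, -4.15 and -3.57 at day 7. miR-20a-5p measured -0.56, 0.16 and 0.00 at day 3 and -1.66, -2.34 and -2.02 at day 7, a change of -1.87 (adjusted p = 0.00365). Neither overlapped between the groups. miR-19b-3p changed by -2.08 (adjusted p = 0.00722) and miR-20b-5p by -2.02 (adjusted p = 0.0183).

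miR-18a-5p and miR-19a-3p were detected on all day 3 arrays and on 1 of 3 day 7 arrays, and changed by -4.11 (adjusted p = 0.000517) and -3.31 (adjusted p = 0.000974). miR-17-5p itself was detected on every day 3 array and on no day 7 array, and was not called (adjusted p = 0.0719). All 4 miRNAs with the seed AAAGUGC that were detected on all 6 arrays fell, by 1.75 to 2.56 on the log2 scale, and moved towards the bottom of the ranks. Of all 201 miRNAs detected on all 6 arrays, 12.4% were called lower and 29.9% stood nearer the bottom without overlap.

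The miR-15/16 family, which restrains cyclins and Bcl2, fell at 3 of 7 tested members, against 16% of all tested miRNAs, and rose at none. The median was -0.90 and was also negative under the other scalings. miR-15b-5p, whose hairpin lies with that of miR-16-2 within the span of Smc4 on chromosome 3, measured 2.18, 2.78 and 2.23 at day 3 and 0.24, 0.90 and 0.31 at day 7. Its change was -1.92 (SE 0.38, adjusted p = 0.00324). miR-15a-5p measured 0.82, 1.20 and 1.08 at day 3 and -0.55, -1.40 and -0.79 at day 7, a change of -1.95 (adjusted p = 0.0031). miR-16-5p changed by -1.81 (adjusted p = 0.00771). All 6 members with the seed AGCAGCA detected on all 6 arrays stood nearer the bottom of the ranks at day 7 without overlap. Of all 201 ranked miRNAs, 29.9% did so. The 6 members include miR-497a-5p, whose change was 0.39 (adjusted p = 0.414).

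The let-7 family, which represses Hmga2, Lin28 and Il6, did not move as a block. Of 13 tested members, 4 fell and 3 rose, against 16% and 21.1% of all tested miRNAs. The median was 0.43 over the 13 and -0.45 over the 11 detected on all 6 arrays. miR-98-5p fell by 2.17 on the log2 scale (adjusted p = 0.0031), let-7g-5p by 1.63 (adjusted p = 0.00399), let-7f-5p by 1.43 (adjusted p = 0.0112) and let-7i-5p by 1.29 (adjusted p = 0.0153). let-7e-5p rose, as did the passenger strands let-7b-3p by 1.84 (adjusted p = 0.0292) and let-7f-1-3p by 1.76 (adjusted p = 0.028). With no scaling all 3 rises turned, to -0.66, -0.50 and -0.59.

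let-7e-5p and miR-98-5p are identical at 19 of 22 bases. Their difference on the same array was -1.76 ± 0.39 (SD, n = 3) at day 3 and 2.10 ± 0.85 at day 7, without overlap. The difference between let-7e-5p and let-7g-5p went from -5.40 ± 0.14 to -2.08 ± 0.53. Both differences were higher on every day 7 array than on every day 3 array, whatever factor an array is divided by. Another pair of relatives by seed, miR-130b-3p and miR-721, also parted.
miR-130b-3p: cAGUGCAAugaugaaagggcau
miR-721: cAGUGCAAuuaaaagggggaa
miR-130b-3p fell by 1.86 on the log2 scale (adjusted p = 0.00604) and miR-721 rose by 2.68 (SE 0.79, adjusted p = 0.019). The change of their same-array difference was 4.55.

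In the miR-29 family, whose members repress collagens, 3 of 5 tested fell (miR-29b-3p by 1.74 on the log2 scale, miR-29b-1-5p by 1.67 and miR-29a-3p by 1.02), against 16% of all tested miRNAs. The call of miR-29a-3p was lost under 10 of 30 alternatives, and that of miR-29b-3p was lost under 8 and turned to 0.45 with brightness as a covariate. In the miR-26 family 1 of 2 fell (miR-26b-5p, by 2.13, adjusted p = 0.0112). In the miR-232724 clusters 1 of 8 fell (miR-27a-3p, by 1.20, adjusted p = 0.0406), and in the miR-30 family 1 of 11 (miR-30e-5p, by 1.86, adjusted p = 0.0355, detected on 5 of 6 arrays). The call of miR-27a-3p was lost under 9 of 30 alternatives. That of miR-30e-5p was lost under 9 of 28 and turned with brightness as a covariate. In the miR-181 family 2 of 5 fell, miR-181c-5p and miR-181d-5p, both detected on every day 3 array and on no day 7 array. No member was called among the 2 tested of the pair miR-221-3p and miR-222-3p, the 3 of the miR-101 family and the 2 of the miR-10 family. miR-10a-5p changed by -0.10 (adjusted p = 0.821) and miR-222-3p by -0.28 (adjusted p = 0.62). Median changes over tested members were -1.31 for miR-26, -1.02 for miR-29, -0.36 for miR-221 and miR-222, -0.17 for miR-181 and -0.07 for miR-101. They were -0.01 for the miR-232724 clusters, 0.01 for miR-10 and 0.51 for miR-30, against 0.61 over all tested miRNAs. Over the members detected on all 6 arrays the sign turned for miR-181 (0.31), miR-10 (-0.10) and miR-30 (-0.12).

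In the list of hypoxia and p53 miRNAs 1 of 5 tested members rose and 2 fell, against 21.1% and 16% of all tested miRNAs. The median was 0.01. miR-34a-5p, a direct p53 target, measured -0.26, -2.32 and -1.80 at day 3 and 0.75, 0.32 and 0.33 at day 7. It rose by 1.92 (SE 0.49, adjusted p = 0.00976), although with no scaling its change was -0.42. miR-210-3p, the main hypoxia-induced miRNA, measured -2.62, -2.56 and -3.02 at day 3 and -3.74, -4.42 and -3.92 at day 7. It fell by 1.29 on the log2 scale (adjusted p = 0.0177), a call lost under 6 of 30 alternatives, quantile normalization among them. The difference between these miRNAs on the same array rose from 1.27 ± 1.06 (SD, n = 3) to 4.49 ± 0.25 without overlap. miR-192-5p, also a p53 target, was the other fall.

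Some miRNAs were detected in 1 population and on no array of the other, which gives a bound in place of a fold. The bound sets the group in which the miRNA was detected against the dimmest signal called detected on each array of the other group. Of the 34 miRNAs detected on every day 3 array and on no day 7 array, 12 were called lower, against 16% of all tested miRNAs. The choice by detection itself favours falls in this set. miR-1927 was at least 9.09-fold lower at day 7 (adjusted p = 0.000974) and miR-340-5p at least 8.68-fold lower (adjusted p = 0.00116). The bound was a fall of at least 5.59-fold for miR-3070-2-3p (adjusted p = 0.00177) and 5.5-fold for the epithelial miRNA miR-200c-3p (adjusted p = 0.00255). It was 4.73-fold for miR-467a-3p (adjusted p = 0.00146) and 4.29-fold for miR-3474 (adjusted p = 0.00769). In the other direction miR-328-3p, detected on every day 7 array and on no day 3 array, rose at least 7.98-fold (adjusted p = 0.00224). Since day 7 arrays were dimmer, more miRNAs could drop below detection there (94 tested miRNAs on all 3) than at day 3 (33).

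miRNAs with the names miR-297, miR-466, miR-467 and miR-669, mouse miRNAs with CA-rich repeats, split by detection. Of 17 tested, 7 rose and 4 fell, against 21.1% and 16% of all tested miRNAs. The median was -0.30 over the 17 and 2.56 over the 7 detected on all 6 arrays. miR-466f-3p rose by 2.79 (adjusted p = 0.00179), miR-467f by 2.67 (adjusted p = 0.0033), miR-669p-3p by 2.59 (adjusted p = 0.00277), miR-466i-3p by 2.56 (adjusted p = 0.0033), miR-466h-3p by 2.50 (adjusted p = 0.00393) and miR-466q by 2.43 (adjusted p = 0.00391). miR-467f measured -5.75, -6.35 and -6.45 at day 3 and -4.04, -2.80 and -3.71 at day 7, without overlap. The falls were miR-466b-3p, miR-467a-3p and miR-467b-5p, all undetected on the day 7 arrays, and miR-669n. The sequences of 3 risers show how alike they are.
miR-467f: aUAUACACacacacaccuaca
miR-466i-3p: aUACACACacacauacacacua
miR-466q: gUGCACACacacacauacgu
Between 14 and 16 bases are identical between each pair, and whether their probes share signal was not tested.

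Other rises among the 15 largest were miR-214-3p, miR-450a-2-3p, miR-3473b and miR-6354. miR-3473b measured -0.14, -0.18 and -0.68 at day 3 and 1.59, 2.55 and 1.93 at day 7, a change of 2.35 (adjusted p = 0.00604), and its mean rank went from 37 to 9. miR-450a-2-3p rose by 2.49 (adjusted p = 0.0037) and miR-6354 by 2.32 (adjusted p = 0.00976), the latter turning to -0.03 with no scaling. Of the miRNAs listed for the imprinted Dlk1-Dio3 region of chromosome 12, 4 were tested, with a median of 1.26 against 0.61 over all tested miRNAs. Of these 4, 2 rose, against 21.1% of all tested miRNAs. They were miR-494-3p by 2.17 (adjusted p = 0.005) and miR-370-3p by 1.34 (adjusted p = 0.0375). With no scaling these were -0.17 and -1. The others tested, miR-127-3p (1.18) and miR-487b-3p (1.15), were detected on none of the 6 arrays, so that their values and the median are limited by background. The list does not hold every miRNA of the region: by RefSeq position, miR-3072-5p, called higher (1.30, but -1.04 with no scaling and -0.50 with the dmr controls), and miR-3070-2-3p, called lower, also lie there.

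Some markers of other cells and of RNA quality differed between the groups and others were not called. Their part in the results was not tested. Among cardiomyocyte miRNAs, 10 of 13 on the array were undetected on all 6 arrays. Of 4 tested, 2 rose, against 21.1% of all tested miRNAs, with a median of 1.66. miR-133a-3p rose by 2.21 (adjusted p = 0.00177) and miR-133b-3p by 2.17 (adjusted p = 0.00222), turning to -0.14 and -0.17 with no scaling. miR-1a-3p, detected on 3 of the 6 arrays, changed by 0.27 (adjusted p = 0.712). miR-208a-5p (1.16, adjusted p = 0.0719) was detected on none of them. The list's summed log2 signal lay between -4.72 and -4.12 at day 3 and between -2.97 and -2.35 at day 7. Among fibroblast and smooth muscle miRNAs 2 of 5 tested rose, with a median of 0.89 and sums of -3.21 to -2.85 and -2.21 to -0.98, and 5 of 10 were undetected on all 6 arrays.

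miR-214-3p, the fibroblast marker with the largest change, measured -6.36, -6.23 and -6.04 at day 3 and -4.01, -2.10 and -4.16 at day 7. The change was 2.79 (SE 0.56, adjusted p = 0.0033), 2.12 within slide 1 and 4.13 within slide 2, where day 7 replicate 2 was the highest. Its partner miR-199a-5p rose by 1.38 (adjusted p = 0.0375), and turned with the dmr controls (-0.43), with no scaling (-0.96) and in the ranks taken as normal scores (-0.02).

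No member was called among the 2 tested endothelial and the 4 tested lymphocyte miRNAs. miR-126a-3p, the endothelial marker, changed by -0.16 (adjusted p = 0.81). The endothelial median was 0.31 over both tested arms, and the summed log2 signal lay between -1.70 and -1.31 at day 3 and between -1.75 and -1.53 at day 7. The lymphocyte median was 0.68, with sums of 0.58 to 1.05 and of 1.02 to 1.84. The 1 tested erythroid and platelet miRNA, miR-451a, fell by 2.38 on the log2 scale (adjusted p = 0.00355, detected on 1 of 3 day 7 arrays), its list having sums of -4.91 to -4.09 and of -5.92 to -4.95. Of 9 tested epithelial, liver and neuron miRNAs 3 fell (miR-200c-3p, miR-128-3p and miR-192-5p), against 16% of all tested miRNAs, and none rose. The median of these 9 was 0.01, although 1 alone, miR-128-3p, was detected on all 6 arrays, with sums of -2.64 to -2.32 and of -2.98 to -1.53. Sequences such as miR-709 and miR-5109_v19.0 were reported as fragments of longer RNA and are listed here as signs of RNA quality. They rose at 4 of 7 tested, against 21.1% of all tested miRNAs, with a median of 1.57. Their summed log2 signal lay between 2.70 and 3.31 at day 3 and between 4.65 and 5.21 at day 7. miR-709 rose by 1.91 (adjusted p = 0.00391) and miR-5109_v19.0 by 1.80 (adjusted p = 0.0164). With no scaling the same miRNAs stood at -0.44 and -0.54.

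Base composition also differed between the calls. The median share of G and C was 59.1% in the 49 of 61 rises with a RefSeq sequence, 40.9% in 24 of 25 falls and 54.5% in the miRNAs without a call. Across 166 miRNAs the log2 change had a Pearson r of 0.41 and a Spearman rho of 0.41 with that share. Against the mean log2 level of 201 miRNAs the values were -0.41 and -0.45. These are descriptions across miRNAs that share the same 6 arrays, and the part of composition in the changes was not tested.

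A fit with each array's brightness as a covariate left 58 calls, 8 higher and 50 lower, of which 34 were among the 137. Called in it were miR-146a-5p (5.03, adjusted p = 0.00913), miR-125a-5p (2.06, adjusted p = 0.0271), miR-99b-5p (3.72, adjusted p = 0.00277), miR-125b-5p (2.95, adjusted p = 0.00649) and miR-99a-5p (2.49, adjusted p = 0.00649). Also called were miR-15b-5p (-2.36, adjusted p = 0.0156), miR-130b-3p (-2.42, adjusted p = 0.0398), miR-128-3p (-2.89, adjusted p = 0.00585) and miR-18a-5p (-4.71, adjusted p = 0.0105). miR-142a-3p (-0.73, adjusted p = 0.301), miR-223-3p (-1.54, adjusted p = 0.0555) and miR-21a-5p (-1.25, adjusted p = 0.0921) kept their sign and were not called. The same held for miR-106b-5p (-0.54), miR-20a-5p (-1.36), miR-93-5p (-1.08), miR-19b-3p (-0.34), miR-15a-5p (-1.16), miR-16-5p (-0.24) and miR-98-5p (-0.79), and for let-7e-5p (0.75). miR-721 (-1.11), miR-26b-5p (0.17) and miR-20b-5p (0.66) turned, so that no miRNA with the seed AAAGUGC detected on all 6 arrays was called lower in that fit. The slope for brightness came from differences among arrays within the 4 groups, day 3 and day 7 included. Since brightness did not overlap between day 3 and day 7, that slope was carried across the gap between them.

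Levels at day 0 and day 30 place the contrast, without a test. miR-146a-5p stood at 0.31 and -0.38 at day 0 and at 0.92, 0.49 and 0.53 at day 30, so that the day 3 arrays, at -5.80 to -3.30, were lower than all others. miR-125a-5p stood at -2.02 and -1.32 at day 0 and at -3.74, -3.48 and -3.51 at day 30, and miR-99b-5p at -2.56 and -3.15, then -4.25, -4.34 and -4.38. The day 3 arrays were again below all others for both.

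miR-142a-3p stood at -2.08 and -3.37 at day 0 and at 1.21, 0.60 and 0.61 at day 30, where day 30 lay in or above the range of day 3. miR-223-3p was 2.79 and 1.93 at day 0 and 2.73, 2.63 and 2.62 at day 30, below all day 3 arrays and above all day 7 arrays. miR-21a-5p was 1.14 and 0.70 at day 0 and 3.77, 3.80 and 3.79 at day 30. miR-214-3p was detected on no day 0 array and measured -6.41, -6.62 and -6.62 at day 30, below every day 7 array. miR-20a-5p was -1.61 and -1.92 at day 0 and -0.41, -0.10 and -0.10 at day 30. For miR-142a-3p and miR-20a-5p, day 7 and day 0, the dim groups, lay together below day 3 and day 30, the bright ones.

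**Figure D5:**
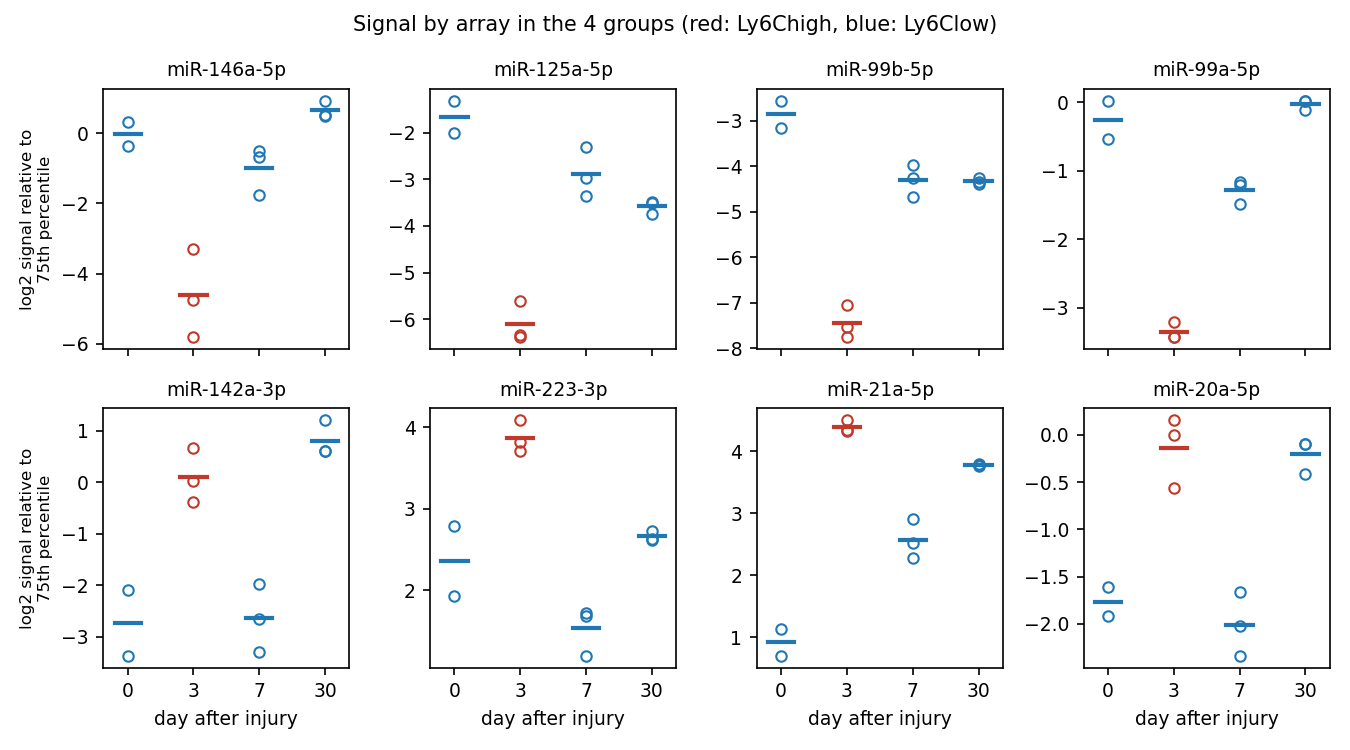
Log2 signal relative to the array's 75th percentile (vertical axis) by day after injury (horizontal axis, 0 for hearts without surgery) for 4 rising (top) and 4 falling (bottom) miRNAs, with 1 circle per array and a bar at the group mean; red is Ly6Chigh and blue Ly6Clow. In the top row day 3 is the lowest group in every panel, and in the bottom row day 3 lies above day 7 in every panel while day 30 reaches the day 3 range for miR-142a-3p and miR-20a-5p.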

How the data were processed

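Signals were measured on 11 single-colour Agilent mouse miRNA arrays. Per the file headers, the deposited scanner files give, for 1247 miRNAs and 21 controls, the total signal of each as an intensity that is not logged, with its error and a flag for detection. Images were read with Agilent Feature Extraction, version unstated, per the submitters' processing notes. A deposited table of log2 values for 317 miRNAs, normalized by the authors, was an alternative; within each array it ranked the miRNAs as the scanner signal does, and its columns share a median of 4.46.

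Signals were scaled by each array's 75th percentile, taken over the 126 miRNAs detected on all 11 arrays. Scaled signals under 0.00271 (log2 -8.53, the median over arrays of the lowest detected signal) were raised to it. The test took the 369 miRNAs detected on 2 or more arrays. At day 30, replicates 2 and 3 lay within scanner error of each other (0.263 of the expected squared difference, against 2.64 to 44.7 for the other pairs of a group), so they were averaged as 1 sample. limma 3.58.1 in R 4.3.3 (jsonlite 2.0.0) was fitted to 10 samples in 4 groups, with 6 residual degrees of freedom and Benjamini-Hochberg adjustment over all 369. The steps were tested on simulated data. Figures used Python 3.11.15 with pandas 2.3.3 and matplotlib 3.10.9.

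Named miRNAs were the 15 largest changes in each direction among called miRNAs detected on all 6 arrays without overlap, the 6 largest bounds, up to 4 members per list, 5 chosen macrophage miRNAs and the 5 largest rank moves. The text names fewer in places, and miR-5130, miR-17-5p and the members without a call were named after their values were seen. The miRNAs and the 25 lists, written from general knowledge, were chosen with earlier results of these data known. For a miRNA undetected in 1 group, the bound takes on each array of that group the higher of the lowest detected signal and the miRNA's own signal, averaged in log2. Sequences and positions come from RefSeq (GRCm38.p6), which matched 297 of the 369.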

Additional observations from a re-analysis of the deposited data

How the results depend on the processing

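The 137 calls became 208 with no scaling, 73 with within-array ranks as normal scores, 74 with the highest in place of the median floor, 790 with no filter on detection, 275 with array quality weights (whose estimation stopped before convergence) and 58 with brightness as a covariate. The 78 higher calls became 128 with the percentile over miRNAs detected on all 6 arrays, 121 with the median, 13 with the percentile over all miRNAs, 2 with no scaling, 6 with the dmr controls, 39 with ranks, 32 with the highest floor, 724 with no filter, 130 with the 6 arrays alone, 175 with weights, 127 with slide as a block and 8 with brightness. The 59 lower calls became 104 with the percentile over all miRNAs, 94 with loess, 206 with no scaling, 175 with the dmr controls, 34 with ranks, 31 among miRNAs detected on all 6 arrays and 100 with weights. The cause of these shifts was not tested, beyond the smaller number of miRNAs or samples that an alternative itself sets. Leaving out 1 array gave 82 to 220 calls, 39 to 141 of them higher and 39 to 79 lower. Leaving out day 3 replicate 3 gave 82 calls, day 7 replicate 3 gave 86, day 3 replicate 2 gave 89 and either day 0 array 220. Leaving out day 7 replicate 2, the dimmest of its group, gave 110. Ranks without overlap ranged from 53 to 65 towards the top and from 60 to 69 towards the bottom. Leaving out an array can only relax this condition, so these counts could not fall below the 52 and 60 of all 6 arrays.

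Deviations of same-numbered day 3 and day 7 samples correlated at -0.14, 0.50 and 0.07, so the numbers were not taken to pair samples; the replicate block gave 165 calls, including all 137, 101 of them higher and 64 lower. The slide as a block gave 203 calls and the log2 values deposited by the authors gave 155 calls among 317 miRNAs, neither with a called direction reversed among the named miRNAs. Of 79 named miRNAs, 17 turned with no scaling: miR-6354 -0.03, miR-99a-5p -0.28, let-7b-3p -0.50, let-7f-1-3p -0.59, let-7e-5p -0.66, miR-10b-5p -1.98, miR-34a-5p -0.42, miR-494-3p -0.17, miR-370-3p -1, miR-709 -0.44, miR-5109_v19.0 -0.54, miR-5105_v19.0 -0.57, miR-5100 -0.77, miR-133a-3p -0.14, miR-133b-3p -0.17, miR-199a-5p -0.96 and miR-342-3p -1.83. With the dmr controls 9 turned: let-7f-1-3p -0.05, let-7e-5p -0.12, miR-10b-5p -1.69, miR-370-3p -0.47, miR-5109_v19.0 0, miR-5105_v19.0 -0.04, miR-5100 -0.23, miR-199a-5p -0.43 and miR-342-3p -1.30. With brightness 11 turned: miR-721 -1.11, miR-6354 -0.10, miR-26b-5p 0.17, miR-20b-5p 0.66, miR-29b-3p 0.45, let-7b-3p -0.88, let-7f-1-3p -0.66, miR-30e-5p 0.90, miR-370-3p -0.31, miR-5109_v19.0 -0.14 and miR-5105_v19.0 -1.11. In ranks as normal scores miR-199a-5p was -0.02. Of the tested miRNAs, 94 were detected on no day 7 array and 33 on no day 3 array, and their changes are limited by background.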

Other observations

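Arms of the same hairpin or neighbours in a cluster did not always move together. let-7f-5p, the guide arm, fell by 1.43 on the log2 scale (adjusted p = 0.0112 in limma), whereas let-7f-1-3p, from the opposite arm of one of its hairpins, rose by 1.76 (adjusted p = 0.028), with a turned sign under no scaling, the dmr controls and the brightness covariate. On chromosome X the hairpins from Mir322 to Mir450-1 lie within 6353 bases of each other, and there miR-450a-2-3p rose by 2.49 (adjusted p = 0.0037) while miR-503-5p was at least 3.02-fold lower at day 7 (adjusted p = 0.0155). The same-array difference between miR-125a-5p and its passenger strand miR-125a-3p went from -0.31 ± 0.22 (SD, n = 3) at day 3 to 2.38 ± 1.38 at day 7. In the let-7a-1 cluster of chromosome 13, 5 members were tested, of which 1 rose and 1 fell.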
